A study of Mus musculus with 2 samples.

Results

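Genes of the mitotic spindle, the spindle checkpoint and cytokinesis were compared between a metastatic and a primary patient-derived xenograft. The 41 genes were chosen by name, and all 41 were found among the 57011 gene labels of the deposited expression table. Of these, 37 were listed alone and 4 (BUB1B, CENPA, NUSAP1 and PRC1) only in a locus merged with neighbouring genes, so their values include those neighbours. At least 1 FPKM in at least 1 library, taken here as expressed, was reached by 39 of the 41.

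The metastatic library came from a metastatic gastroenteropancreatic neuroendocrine tumor grown in the peritoneal cavity. The primary library came from a primary tumor of the same type grown in the flank. Both were human tumors carried in athymic nude mice of the strain Foxn1nu, and each group held 1 library, which leaves every difference below unreplicated and untested. Graft site and tumor origin differed together and cannot be told apart, and the labels give neither the number of animals nor whether both tumors came from 1 patient. The values were FPKM, which divide fragment numbers by transcript length and library total, so levels can be set side by side between genes. FPKM summed to 885319 in the metastatic and 784987 in the primary library, and the read depth is unknown.

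Entry into mitosis is driven by cyclin-dependent kinase CDK1 bound to cyclins A and B. The spindle checkpoint holds the anaphase promoting complex, a ubiquitin ligase, inactive until chromosomes are attached through their kinetochores. Its release destroys cyclin B and securin and frees separase, which cuts the cohesin that holds sister chromatids together, and the cell then divides at the midzone of the spindle. Many of these genes are transcribed mainly in late cell cycle phases, which is why their transcripts serve as proliferation markers.

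Nearly all expressed mitotic genes had similar levels in both tumors, and separase stood apart. On the log2((metastatic + 1)/(primary + 1)) scale, 1 of the 39 genes was higher by 2-fold or more in the metastatic library and 0 were lower by as much. Among all 13811 expressed entries of the table, 9.22% were higher and 9.35% lower by that margin. With only the 7059 entries of a mean of at least 10 FPKM, those shares were 9.35% and 6.36%, and 37 of the mitotic genes lay in that range. The median log2 ratio of the mitotic genes was 0.04, with a 95% binomial interval over genes of -0.11 to 0.15, beside a median of 0.03 over all expressed entries and 0.15 over those with a mean of at least 10 FPKM. Of the 39 genes, 20 lay above 0 and 19 below. Within 1.5-fold lay 34 of them, or 87.2%, against 58.2% of all expressed entries and 61.5% of those with a mean of at least 10 FPKM. With each library scaled to the same sum, the median over all entries was -0.13 and that of the mitotic genes -0.13. Such a scaling moves every log2 ratio by nearly the same amount, so this joint shift is no result about the mitotic genes. Of all entries past 2-fold, 36.2% were then higher in place of 49.6%.

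**Figure D1:**
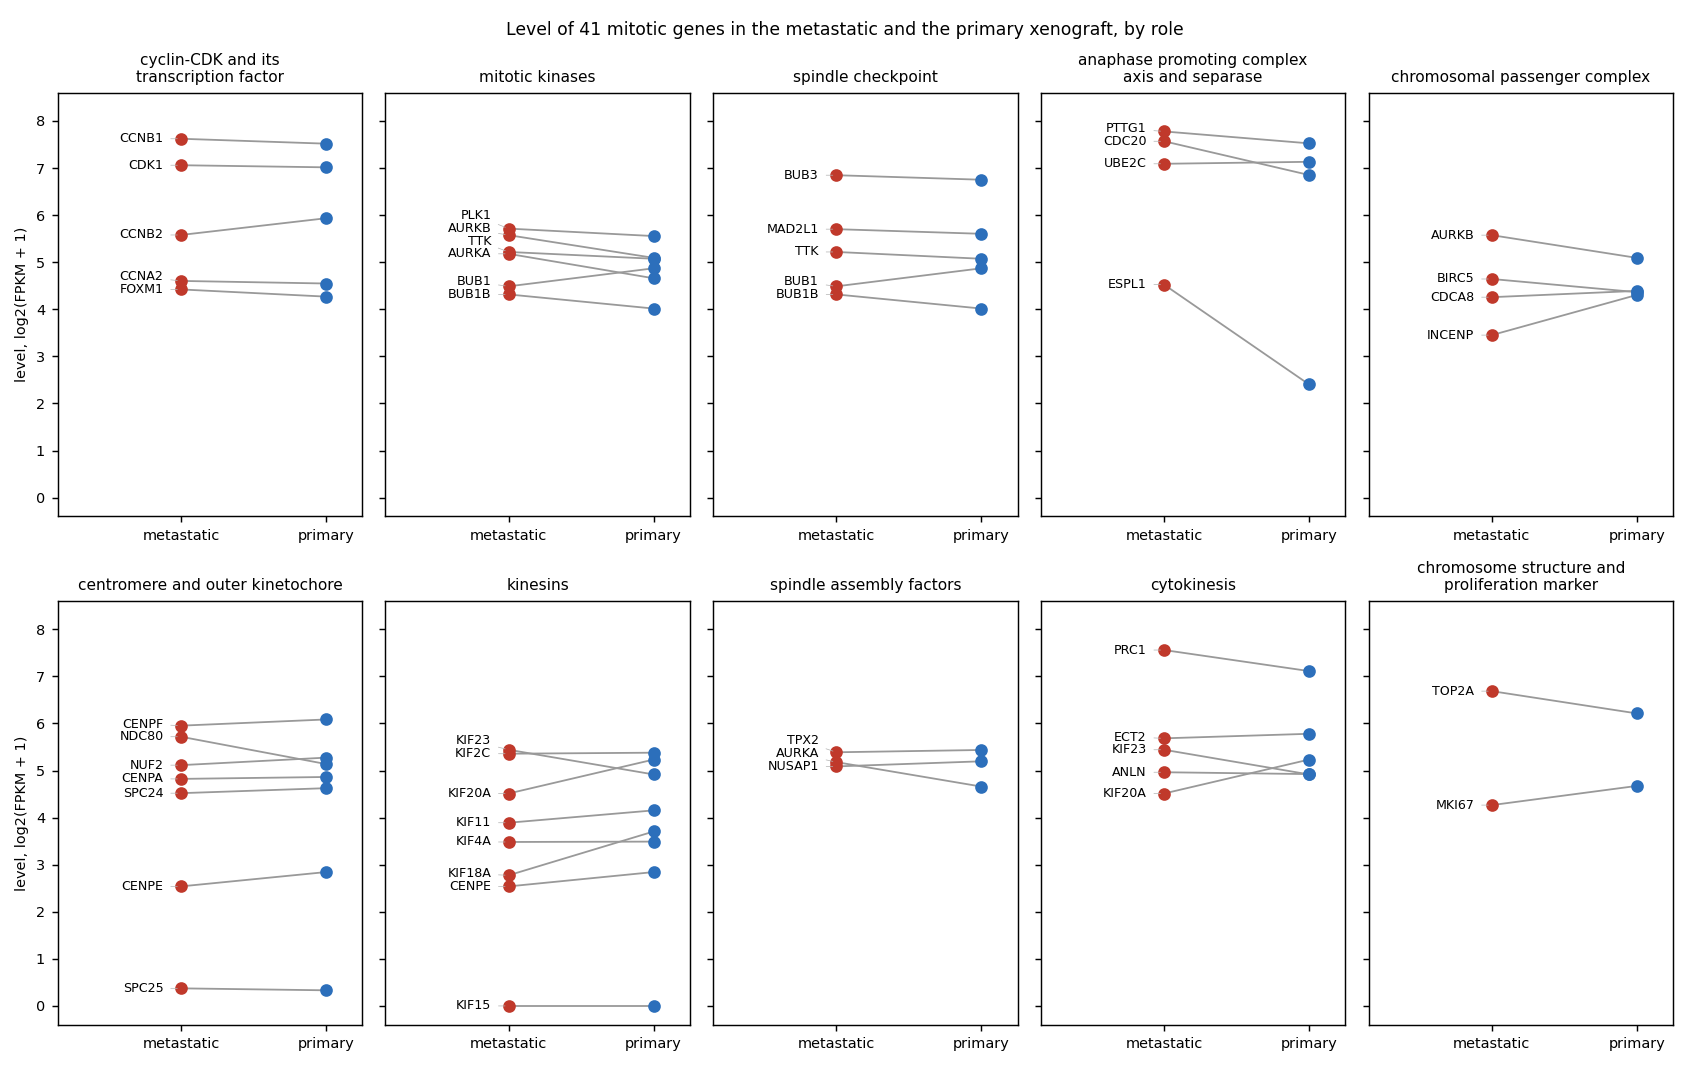
Levels as log2(FPKM + 1) of the 41 genes in the metastatic (left, red) and the primary (right, blue) library, 1 panel per role, with lines joining the values of a gene. Genes with several roles appear in several panels. Most lines run level, ESPL1 is far higher in the metastatic library, and SPC25 and KIF15 lie at or near 0 in both.

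Levels across the genes followed a similar order in both tumors. The lowest, median and highest levels of the 39 expressed genes were 4.81, 35.2 and 218 FPKM in the metastatic library, and 4.29, 33.1 and 183 FPKM in the primary library. Securin was highest in both. Across these 39 genes, which share their libraries and are not independent, the Spearman coefficient between the libraries was 0.920 and the Pearson coefficient of log2 values 0.923. Over all expressed entries the coefficients were 0.905 and 0.917. Summed over all 41, the genes reached 2208 FPKM in the metastatic and 1984 FPKM in the primary library.

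The cyclin-CDK engine was close to level. CDK1, the kinase that starts mitosis, stood at 132 FPKM in the metastatic and 128 FPKM in the primary library, a log2 ratio of 0.04. Its partner CCNB1, cyclin B1, stood at 196 and 182 FPKM in the metastatic and the primary library. CCNA2, cyclin A2, was lower in level than either, at 23.3 FPKM in the metastatic and 22.4 FPKM in the primary library. These 3 genes differed by at most 0.10 on the log2 scale. CCNB2, cyclin B2, went the other way, with 46.8 FPKM in the metastatic and 60.1 FPKM in the primary library (log2 ratio -0.36). FOXM1, the transcription factor of many late cell cycle genes, stood at 20.4 FPKM in the metastatic and 18.3 FPKM in the primary library.

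Mitotic kinases were all within 2-fold. AURKA, which matures centrosomes and is activated on the spindle by TPX2, had 35.2 FPKM in the metastatic and 24.3 FPKM in the primary library (log2 ratio 0.52). AURKB, the kinase of the chromosomal passenger complex, had 46.7 FPKM in the metastatic and 33.1 FPKM in the primary library (0.48). PLK1, which acts at centrosomes, kinetochores and the midzone, had 51.5 FPKM in the metastatic and 46.0 FPKM in the primary library (0.16). Both Aurora kinases thus had higher values in the metastatic library, by less than 1.5-fold on this scale.

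The spindle checkpoint genes differed little. MAD2L1, which binds and restrains CDC20, stood at 51.1 FPKM in the metastatic and 47.6 FPKM in the primary library. BUB3, an adaptor that brings BUB1 and BUB1B to kinetochores, was the most abundant checkpoint gene in both libraries, with 114 FPKM in the metastatic and 107 FPKM in the primary library. TTK, the kinase that starts checkpoint signalling, had 36.2 FPKM in the metastatic and 32.7 FPKM in the primary library. All 3 had log2 ratios between 0.10 and 0.14. BUB1, a kinase that marks the centromere, was the only checkpoint gene with a lower value in the metastatic library, at 21.4 FPKM against 28.3 FPKM in the primary library (-0.38). With libraries scaled to the same sum, TTK (-0.02), BUB3 (-0.08) and MAD2L1 (-0.07) were lower too. The BUB1B locus, merged with PAK6 and a BUB1B-PAK6 readthrough, stood at 18.9 FPKM in the metastatic and 15.2 FPKM in the primary library.

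Separase and the checkpoint target CDC20 had the highest positive log2 ratios. ESPL1, which encodes separase, stood at 22.0 FPKM in the metastatic library and 4.29 FPKM in the primary library, a log2 ratio of 2.12. The plain ratio was 5.13. ESPL1 lay at percentile 66.8 of all expressed entries in the metastatic and at percentile 31.2 in the primary library. CDC20, which activates the anaphase promoting complex, stood at 189 FPKM in the metastatic and 115 FPKM in the primary library (log2 ratio 0.72), inside the 2-fold threshold. UBE2C, the ubiquitin-conjugating enzyme of that complex, was level at 135 FPKM in the metastatic and 139 FPKM in the primary library. PTTG1, securin, the inhibitor of separase, had 218 FPKM in the metastatic and 183 FPKM in the primary library (0.25).

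The chromosomal passenger complex, which corrects faulty attachments and guides cytokinesis, was uneven among its subunits. INCENP, its scaffold, stood at 9.94 FPKM in the metastatic and 18.8 FPKM in the primary library (log2 ratio -0.85). BIRC5, survivin, had 24.0 FPKM in the metastatic and 19.6 FPKM in the primary library (0.28), and CDCA8, borealin, had 18.1 and 20.0 FPKM in the metastatic and the primary library (-0.13). The kinase AURKB and its scaffold INCENP therefore had ratios of opposite sign, each within 2-fold. With libraries scaled to the same sum, INCENP was past 2-fold, at -1.03.

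**Figure D2:**
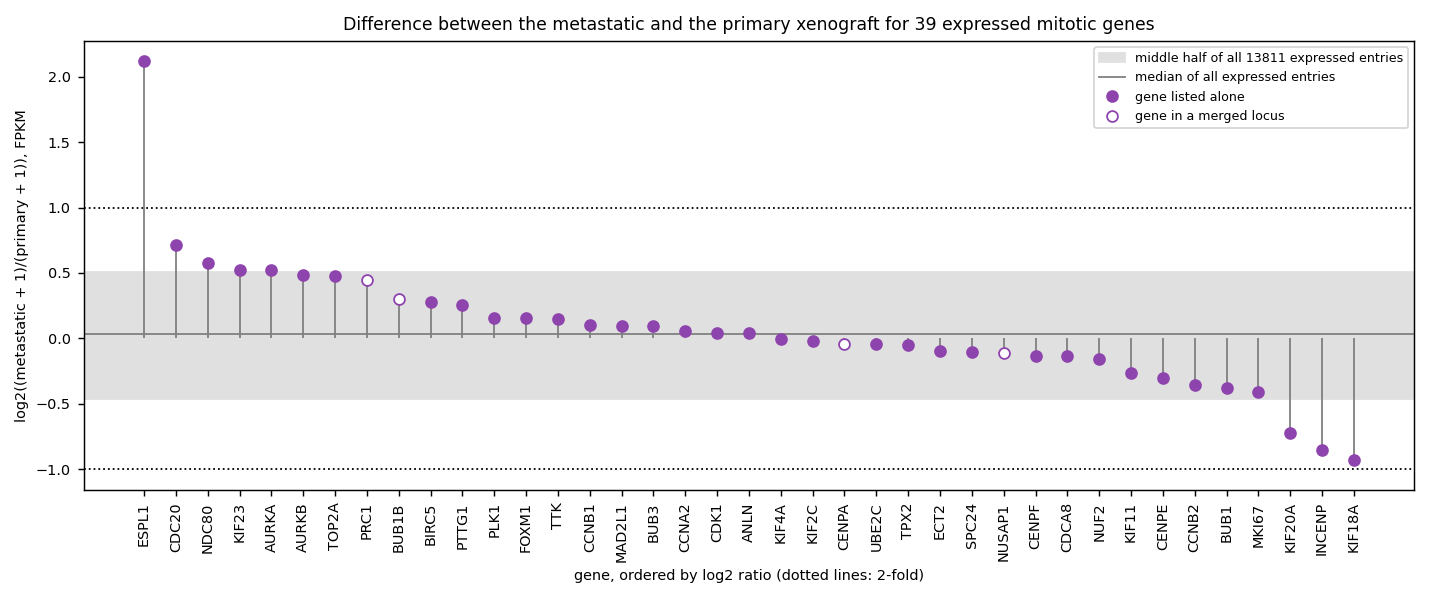
Log2 ratio of metastatic over primary FPKM with a pseudocount of 1 for the 39 expressed genes, in descending order. Open points are genes in merged loci, the grey band is the middle 50% of all 13811 expressed entries, the grey line their median of 0.03, and the dotted lines mark 2-fold. ESPL1 alone lies outside the dotted lines, and KIF18A, INCENP and KIF20A are lowest.

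Centromere and kinetochore genes lay near 0, with NDC80 highest. NDC80, a microtubule-binding subunit of the outer kinetochore, stood at 51.6 FPKM in the metastatic and 34.2 FPKM in the primary library (log2 ratio 0.58). Its direct partner NUF2 stood at 33.6 FPKM in the metastatic and 37.7 FPKM in the primary library (-0.16). SPC24, of the same complex, had 21.9 FPKM in the metastatic and 23.7 FPKM in the primary library (-0.11). The subunits of 1 complex thus differed in sign. SPC25, the fourth subunit, stood in 2 rows whose sum was 0.295 FPKM in the metastatic and 0.258 FPKM in the primary library, far under its partners in both. CENPF, a large kinetochore protein, had 60.9 FPKM in the metastatic and 66.9 FPKM in the primary library, and the kinesin-like CENPE had 4.81 and 6.18 FPKM in the metastatic and the primary library. The locus of the centromeric histone CENPA, merged with SLC35F6, stood at 27.3 FPKM in the metastatic and 28.1 FPKM in the primary library.

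Kinesins are motor proteins that move along or trim microtubules. Of the 7 expressed, CENPE included, 6 had lower values in the metastatic library, with a median log2 ratio of -0.26. Over all 13811 expressed entries, 6585 lay below 0. Among the 6, KIF2C (-0.02) and KIF4A (-0.0078) were near level. KIF18A, which dampens chromosome movements at the metaphase plate, stood at 5.84 FPKM in the metastatic and 12.0 FPKM in the primary library (-0.93). KIF20A, a motor of the midzone, stood at 21.8 FPKM in the metastatic and 36.6 FPKM in the primary library (-0.72). KIF11, which pushes spindle poles apart, had 13.8 FPKM in the metastatic and 16.8 FPKM in the primary library (-0.26). None of these 3 passed 2-fold on the scale used, though without a pseudocount KIF18A was 2.06-fold lower in the metastatic library, and it passed 2-fold with scaling to the same sum (-1.10) and by the 75th percentile (-1.01). KIF2C, a microtubule depolymerase of the centromere, had 40.0 FPKM in the metastatic and 40.6 FPKM in the primary library. KIF4A, a chromosome-bound kinesin, had 10.2 FPKM in both. KIF23, a motor of the centralspindlin complex, was the exception, at 42.4 FPKM in the metastatic and 29.2 FPKM in the primary library (0.52). KIF15 was listed at 0 in both libraries, in 2 rows.

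Spindle assembly and cytokinesis genes were within 2-fold. TPX2, which nucleates microtubules near chromosomes, stood at 40.9 FPKM in the metastatic and 42.3 FPKM in the primary library. The NUSAP1 locus, merged with a clone name, had 33.0 FPKM in the metastatic and 35.6 FPKM in the primary library. Both were near level. PRC1, which bundles midzone microtubules, was measured in a locus merged with VPS33B and a clone name, with 188 FPKM in the metastatic and 137 FPKM in the primary library (0.45). ECT2, the activator of RHOA at the cleavage site, had 50.4 FPKM in the metastatic and 54.0 FPKM in the primary library, and ANLN, anillin of the contractile ring, had 30.2 and 29.4 FPKM in the metastatic and the primary library. The midzone motors KIF20A and KIF23 described above differed in sign.

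The most used proliferation markers differed in sign too. TOP2A, the topoisomerase that untangles sister chromatids, stood at 102 FPKM in the metastatic and 73.2 FPKM in the primary library (log2 ratio 0.47). MKI67, which encodes Ki-67, a protein that coats mitotic chromosomes, stood at 18.2 FPKM in the metastatic and 24.5 FPKM in the primary library (-0.41). Neither passed 2-fold.

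Ratios between partner genes inside a library do not depend on how the libraries were scaled. The pairs were chosen after their values were seen. Securin exceeded separase 9.93-fold in the metastatic and 42.7-fold in the primary library. AURKB exceeded INCENP 4.69-fold in the metastatic and 1.77-fold in the primary library. KIF23 stood at 1.95 times KIF20A in the metastatic and 0.798 times in the primary library. These 3 ratios each differed more than 2-fold between the tumors. Given how the pairs were chosen, the ratios only restate the values of the single genes, and no share over other pairs was computed. TOP2A exceeded MKI67 5.59-fold in the metastatic and 2.99-fold in the primary library. NDC80 stood at 1.54 times NUF2 in the metastatic and 0.908 times in the primary library. By contrast, CCNB1 to CDK1 was 1.48 in the metastatic and 1.42 in the primary library, and NUF2 to SPC24 was 1.53 and 1.59 in the metastatic and the primary library.

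**Figure D3:**
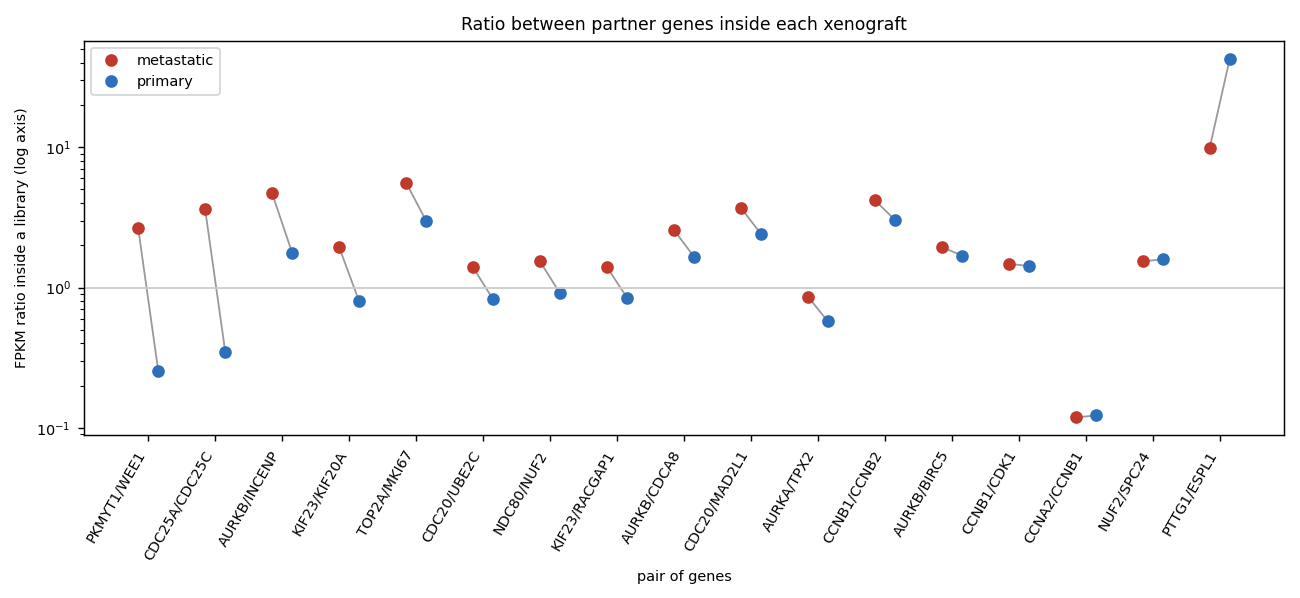
FPKM ratio between the genes of 17 pairs inside the metastatic (left, red) and the primary (right, blue) library, on a log axis, ordered by how far the ratio was higher in the metastatic library. PKMYT1/WEE1 and CDC25A/CDC25C differ most in 1 direction and PTTG1/ESPL1 in the other, while CCNB1/CDK1 and NUF2/SPC24 are nearly level.

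A wider list of 151 mitotic entries, of which 147 were expressed, held 8 that were higher and 4 that were lower by 2-fold or more in the metastatic library, where the shares over all entries were 9.22% and 9.35%. With libraries scaled to the same sum the counts were 4 higher and 7 lower, where the shares over all entries were 7.17% and 12.6%. Its median log2 ratio was 0.21 (95% binomial interval over genes 0.11 to 0.28), or 0.040 at the same sum. Genes that set the activity of CDK1 included the most different ones. WEE1, a kinase that inhibits CDK1, stood at 15.3 FPKM in the metastatic and 76.5 FPKM in the primary library (log2 ratio -2.25). PKMYT1, the related membrane-bound inhibitor, stood at 40.8 FPKM in the metastatic and 19.6 FPKM in the primary library (1.02). The CDK1-inhibiting kinases thus differed in opposite directions, although PKMYT1 was under 2-fold in all 3 scalings run, at 0.86 to 0.99. CDC25A, a phosphatase that activates CDKs, stood at 22.3 FPKM in the metastatic and 5.41 FPKM in the primary library (1.86), and CDC25C, another, at 6.15 and 15.4 FPKM in the metastatic and the primary library (-1.20). ENSA, which inhibits the phosphatase PP2A during mitosis, stood at 130 FPKM in the metastatic and 61.5 FPKM in the primary library (1.07, or 0.90 at the same sum and 0.98 by the 75th percentile). PPP1CC, a catalytic subunit of phosphatase PP1, had the highest mean of that group, with 143 FPKM in the metastatic and 188 FPKM in the primary library (-0.39).

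Inner kinetochore genes held 3 of 20 past 2-fold, all higher in the metastatic library, where the share over all entries was 9.22%. The CENPS locus, merged with CORT, had 52.3 FPKM in the metastatic and 18.7 FPKM in the primary library. CENPX had 41.6 FPKM in the metastatic and 15.9 FPKM in the primary library, and CENPP had 5.17 FPKM in the metastatic and 1.98 FPKM in the primary library. CENPP was under 2-fold with scaling to the same sum (0.96) and by the 75th percentile (0.98). CENPS and CENPX form 1 complex, and their log2 ratios were 1.44 and 1.33. CENPW had the highest mean of both libraries, at 96.6 FPKM in the metastatic and 58.7 FPKM in the primary library. Of 15 expressed outer kinetochore genes beyond the NDC80 complex, 0 passed 2-fold, 13 lay above 0 and the median was 0.44. Over all 13811 expressed entries, 7148 lay above 0 and the median was 0.03. Of the 7059 with a mean of at least 10 FPKM, 4150 lay above 0 and the median was 0.15. ZWINT, which links KNL1 to the checkpoint, had the highest mean of the outer kinetochore list. It had 127 FPKM in the metastatic and 64.6 FPKM in the primary library (0.97).

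Condensin, which compacts mitotic chromosomes, held 1 gene past 2-fold of 8. The shares over all entries, for this and the next 2 groups, were 9.22% higher and 9.35% lower. NCAPD2 stood at 25.7 FPKM in the metastatic and 61.1 FPKM in the primary library (-1.22), while the ATPase subunit SMC4 stood at 245 FPKM in the metastatic and 126 FPKM in the primary library (0.96). Cohesin genes had a median of 0.00041 with 0 of 11 past 2-fold, and RAD21, the cohesin subunit that separase cuts, stood at 80.7 FPKM in the metastatic and 141 FPKM in the primary library (-0.79). The anaphase promoting complex held 0 of 17 past 2-fold, with a median of 0.26. Its entry with the highest mean, the ANAPC7 locus merged with ARPC3, had 412 FPKM in the metastatic and 310.3 FPKM in the primary library.

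Further genes of the spindle poles and the spindle held 3 past 2-fold, among 14, 10 and 12 expressed entries of 3 lists. Over all entries, 9.22% were higher and 9.35% lower by that margin. TUBG1, gamma-tubulin, which nucleates microtubules, stood at 22.5 FPKM in the metastatic and 7.75 FPKM in the primary library (1.43). SASS6, which builds the centriole cartwheel, stood at 18.8 FPKM in the metastatic and 8.65 FPKM in the primary library (1.04, or 0.89 at the same sum and 0.95 by the 75th percentile). NUMA1, which anchors spindle poles, stood at 26.5 FPKM in the metastatic and 59.1 FPKM in the primary library (-1.13). Values went both ways across these groups, with medians of 0.15 for augmin and gamma-tubulin, 0.11 for centrioles and centrosomes and 0.25 for spindle-associated proteins. The genes with the highest mean of both libraries were HAUS1, with 92.0 FPKM in the metastatic and 47.5 FPKM in the primary library, CEP63, with 24.0 FPKM in the metastatic and 29.9 FPKM in the primary, and ARHGEF2, with 117 FPKM in the metastatic and 89.6 FPKM in the primary library. Other mitotic kinesins, other cytokinesis factors and DREAM and MuvB factors held 0 past 2-fold among 6, 9 and 10 expressed entries, with medians of 0.08, -0.10 and 0.21. Highest in mean level were KIF22, with 76.5 FPKM in the metastatic and 54.0 FPKM in the primary library, and RHOA, with 350 FPKM in the metastatic and 316 FPKM in the primary library. In the DREAM and MuvB group the LIN37 locus, merged with PSENEN and a clone name, had 127 FPKM in the metastatic and 98.8 FPKM in the primary library.

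Genes of the G1 and S phases, which precede mitosis, lay higher than the mitotic genes. Of 25 expressed, 24 lay above 0, 5 passed 2-fold upward in the metastatic library and 0 downward, where the shares over all entries were 9.22% and 9.35%. Of all 13811 expressed entries, 7148 lay above 0. The median log2 ratio of the G1 and S phase genes was 0.68 (95% binomial interval over genes 0.35 to 0.97). Beside it stood 0.04 for the mitotic genes, 0.03 for all expressed entries and 0.15 for those with a mean of at least 10 FPKM. The 5 past 2-fold were MCM3, CCNE2, CDC45, E2F1 and PCNA, with log2 ratios from 1.05 to 1.28. PCNA, the sliding clamp of DNA polymerases, stood at 168 FPKM in the metastatic and 80.7 FPKM in the primary library, and was under 2-fold with scaling to the same sum (0.88) and by the 75th percentile (0.96). MCM4, a helicase subunit, had the highest mean, with 239 FPKM in the metastatic and 120 FPKM in the primary library (0.99). The difference between the lists was not tested, and the lists were chosen with earlier results of these data known.

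**Figure D4:**
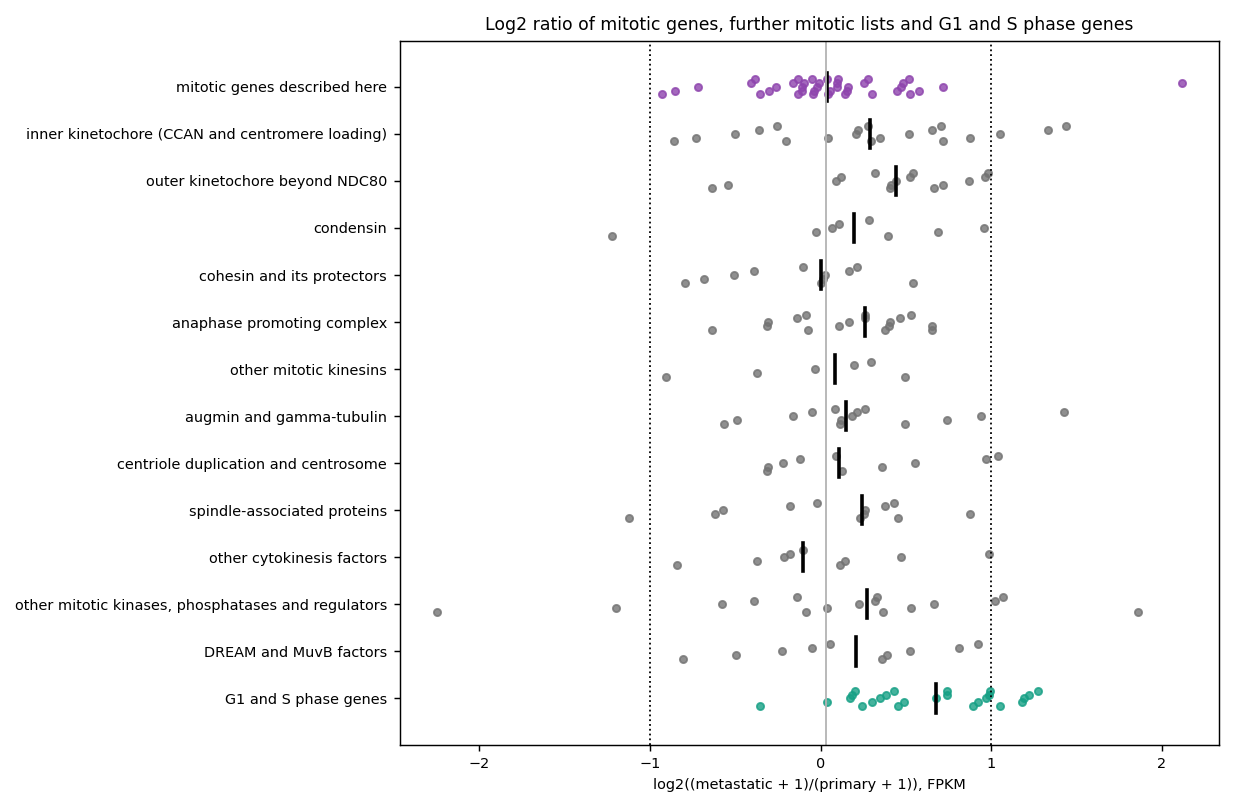
Log2 ratio of metastatic over primary FPKM with a pseudocount of 1 for each expressed gene (points) of the mitotic genes described here (top), 12 further mitotic lists and the G1 and S phase list (bottom). Black bars are list medians, the grey line is the median of all expressed entries and dotted lines mark 2-fold. The mitotic genes centre at 0.04 and the G1 and S phase genes at 0.68.

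The labelled tissue and other cell types were checked by marker lists. Of 10 neuroendocrine markers 8 were expressed, with 2 higher and 3 lower by 2-fold or more in the metastatic library. Over all entries the shares were 9.22% and 9.35%. The higher ones were UCHL1, at 705 FPKM in the metastatic and 225 FPKM in the primary library, and DDC, at 103 and 48.1 FPKM. The lower ones were INSM1, SCG2 and the ENO2 locus, which is merged with LRRC23. INSM1 (0.271 FPKM in the metastatic and 3.54 FPKM in the primary library) and SCG2 (0.340 and 2.62 FPKM) reached 1 FPKM only in the primary library. SYP stood at 1.96 FPKM in the metastatic and 1.63 FPKM in the primary library, and CHGA was listed at 0 in both, in 2 rows, which can be a failed estimate. All 5 epithelial markers were expressed and had higher values in the metastatic library, with a median log2 ratio of 0.74. They summed to 2469 FPKM in the metastatic and 1295 FPKM in the primary library. Only KRT8 passed 2-fold, at 1423 FPKM in the metastatic and 649 FPKM in the primary library. How this bears on the mitotic values was not tested.

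The 9 fibroblast markers listed alone summed to 161 FPKM in the metastatic and 526 FPKM in the primary library, most of it COL1A2 at 149 FPKM in the metastatic and 474 FPKM in the primary library. Of the 7 of these that were expressed, 5 were lower by 2-fold or more, where the share over all entries was 9.35%, and DCN was higher, at 2.89 FPKM in the metastatic and 0.370 FPKM in the primary library. Of those 5, COL6A3 reached 1 FPKM only in the primary library. No fibroblast marker was at 0 in both libraries. Endothelial markers summed to 4.80 FPKM in the metastatic and 27.1 FPKM in the primary library, with KDR at 0 in both. Most of the primary sum was EGFL7, at 1.58 FPKM in the metastatic and 19.1 FPKM in the primary library. CLDN5 followed, at 1.41 and 5.73 FPKM in the metastatic and the primary library. Of the 8 markers 5 were under 1 FPKM in both libraries, and of these VWF and TEK had higher values in the metastatic library. Smooth muscle and pericyte markers summed to 123 FPKM in the metastatic and 45.4 FPKM in the primary library, mostly through MYL9, at 81.5 FPKM in the metastatic and 12.2 FPKM in the primary library. DES (7.82 against 1.40 FPKM), CNN1 (3.41 against 0.707 FPKM) and MCAM (7.01 against 3.25 FPKM) were also higher in the metastatic library. Against that direction, TAGLN stood at 14.4 FPKM in the metastatic and 19.8 FPKM in the primary library. ACTA2 was lower too, at 0.206 against 0.441 FPKM, under 1 FPKM in both. RGS5 was near level, at 8.32 and 7.52 FPKM in the metastatic and the primary library. MYH11 was listed at 0 in both, in 2 rows, which can be a failed estimate. The 7 leukocyte and macrophage markers listed alone summed to 12.7 FPKM in the metastatic and 4.66 FPKM in the primary library. Most of this was LYZ at 12.0 FPKM in the metastatic and 2.72 FPKM in the primary library. AIF1, in 6 rows, and CD3E were listed at 0 in both. Against the direction of the sum, CSF1R (0.243 against 1.06 FPKM), CD14 (0.341 against 0.767 FPKM) and PTPRC (0.0403 against 0.111 FPKM) were lower in the metastatic library. MS4A1 was higher there, at 0.111 FPKM against 0 in the primary library. Host cells of these types would be mouse cells, while the build was human (GRCh38) and no step for mouse reads is named. Tumor transcripts and mouse reads placed on human genes cannot be told apart here. The marker sums are therefore no measure of the content of these cells. Their part in the mitotic values was not tested. In bulk tumor RNA fewer dividing cells and less RNA per cell cannot be told apart. Transcript length, taken from mouse transcripts of the same symbol for 38 of the 39 genes, had a Spearman coefficient of -0.16 and a Pearson coefficient of -0.02 with the log2 ratio. Without ESPL1 they were -0.23 and -0.24. Over the 9337 single expressed genes with such a length the coefficients were -0.27 and -0.25. These were only 72.6% of all single expressed genes, so the values do not cover the whole table.

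Many of the mitotic genes share promoter letters. Late cell cycle promoters are known for the CHR (cell cycle genes homology region), which binds the MuvB core of the DREAM and FOXM1 complexes, and for CCAAT boxes, which bind NF-Y. Human promoters were not used here. Promoters of the mouse genes of the same symbol, from 250 bases before to 50 after the transcription start (RefSeq, GRCm38.p6), were found for 33 of the 41 genes. The letters TTTGAA or TTCGAA, taken as a CHR, and CCAAT were searched on both strands, and none of these letter strings contains another. A CHR match stood in 25 of the 33, or 75.8%, against 21.7% of all 27025 genes of the promoter table and 15.7% of 7542 with a single expressed entry here. A CCAAT box stood in 23, or 69.7%, against 41.1% and 42.3% of those sets. Both stood in 21, or 63.6%, against 8.61% and 6.51%. In the wider mitotic list, 51 of 126 genes (40.5%) had a CHR match, 69 (54.8%) a CCAAT box and 34 (27%) both. Among the G1 and S phase genes, 4 of 19 had a CHR match and 12 of 19 a CCAAT box. The E2F letters TTTGGCGC, TTTCGCGC, TTTCCCGC or TTTGCCGC stood in 3 of the 33 and in 8 of the 19 G1 and S phase genes. They stood in 19 of the 126 wider genes, in 2.6% of all genes and in 4.93% of those with a single expressed entry here. A match is a description of letters and not a bound site, and these sequences are of the mouse and not of the tumors.

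Below are the mouse promoters of 3 genes with near-level values (Cdk1, Ccnb1, Plk1), of the pair with the highest positive log2 ratios (Cdc20, Espl1) and of the gene with the lowest (Kif18a), 5′ to 3′ on the gene's strand. Capitals mark CHR and CCAAT letters on either strand.
Cdk1 (chr10:69352863-69353162, minus strand): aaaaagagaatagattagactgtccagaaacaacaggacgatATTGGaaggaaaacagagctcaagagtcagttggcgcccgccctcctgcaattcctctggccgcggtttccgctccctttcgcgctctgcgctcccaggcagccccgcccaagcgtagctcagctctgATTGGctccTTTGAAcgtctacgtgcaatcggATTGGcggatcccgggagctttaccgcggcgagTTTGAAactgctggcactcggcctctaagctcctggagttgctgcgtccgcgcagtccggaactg
Ccnb1 (chr13:100786437-100786736, minus strand): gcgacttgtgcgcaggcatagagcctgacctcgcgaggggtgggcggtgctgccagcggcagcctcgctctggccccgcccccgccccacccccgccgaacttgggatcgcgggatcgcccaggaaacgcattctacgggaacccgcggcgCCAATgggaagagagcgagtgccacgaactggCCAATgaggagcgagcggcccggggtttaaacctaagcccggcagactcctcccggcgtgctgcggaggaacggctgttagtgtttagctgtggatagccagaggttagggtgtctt
Plk1 (chr7:122159185-122159484, plus strand): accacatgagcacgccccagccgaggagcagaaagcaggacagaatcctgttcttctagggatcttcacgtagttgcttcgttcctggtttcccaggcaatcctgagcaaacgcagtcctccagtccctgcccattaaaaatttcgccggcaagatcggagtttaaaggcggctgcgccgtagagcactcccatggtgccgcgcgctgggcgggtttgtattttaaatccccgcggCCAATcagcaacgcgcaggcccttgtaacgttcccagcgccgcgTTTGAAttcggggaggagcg
Cdc20 (chr4:118437294-118437593, minus strand): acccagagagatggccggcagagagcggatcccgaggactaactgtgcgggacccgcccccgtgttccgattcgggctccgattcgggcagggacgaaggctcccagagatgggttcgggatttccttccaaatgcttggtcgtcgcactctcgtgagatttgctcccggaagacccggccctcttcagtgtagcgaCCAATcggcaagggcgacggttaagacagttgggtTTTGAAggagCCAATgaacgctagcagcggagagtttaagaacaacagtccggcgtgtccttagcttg
Espl1 (chr15:102296043-102296342, plus strand): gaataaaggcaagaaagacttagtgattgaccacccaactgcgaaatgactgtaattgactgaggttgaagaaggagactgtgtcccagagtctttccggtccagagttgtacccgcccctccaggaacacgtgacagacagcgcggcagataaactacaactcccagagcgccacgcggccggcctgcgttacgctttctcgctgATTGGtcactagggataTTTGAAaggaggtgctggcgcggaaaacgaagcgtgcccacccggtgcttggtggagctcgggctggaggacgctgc
Kif18a (chr2:109280488-109280787, plus strand): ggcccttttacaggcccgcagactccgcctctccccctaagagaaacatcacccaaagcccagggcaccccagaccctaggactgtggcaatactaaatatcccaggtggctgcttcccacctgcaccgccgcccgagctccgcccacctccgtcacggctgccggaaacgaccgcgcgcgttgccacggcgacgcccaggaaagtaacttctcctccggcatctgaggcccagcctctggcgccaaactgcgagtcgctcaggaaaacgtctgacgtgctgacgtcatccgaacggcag

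Espl1, the gene that stood apart in level, carried 1 CHR and 1 CCAAT match, as Plk1 did, so these letters were shared by a gene past 2-fold and by a level one. Cdc20 carried 1 CHR and 2 CCAAT matches and Cdk1 2 and 3. Ccnb1 carried CCAAT matches and none of the searched CHR letters, and Kif18a carried neither. Among expressed mitotic genes with a promoter, the median log2 ratio was 0.04 over 23 with a CHR match and -0.0049 over 8 without. Over all single expressed genes it was 0.03 for the 1182 with and 0.03 for the 6360 without. Over the 36 windows, 39 CHR matches had a median position of -19 and 59 CCAAT matches a median of -68 bases from the start, so the median CCAAT position lay upstream of the median CHR position.

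**Figure D5:**
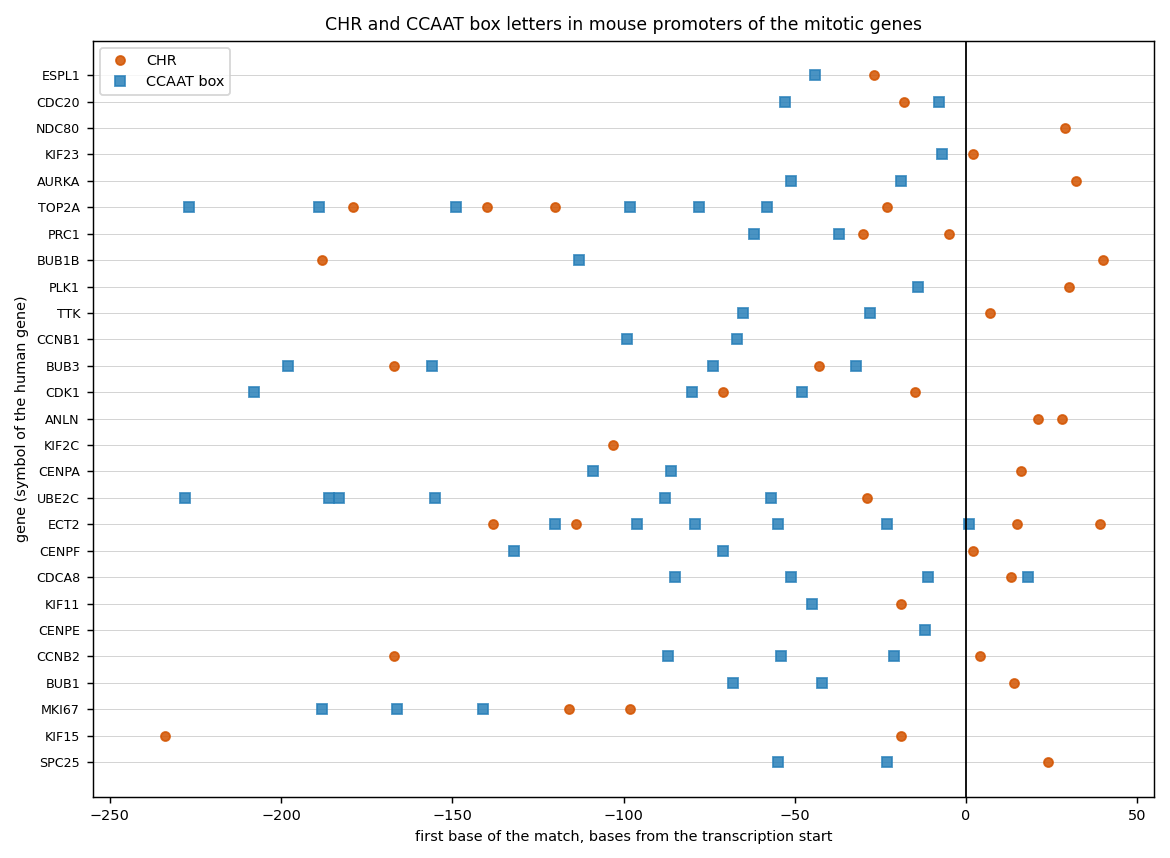
Position of CHR (orange circles) and CCAAT box (blue squares) letters in the mouse promoters of the mitotic genes with at least 1 match, in bases from the transcription start (black line). Genes are ordered from the highest log2 ratio to the lowest, with the genes under 1 FPKM at the bottom. The median position is -19 for CHR and -68 for CCAAT letters.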

How the data were processed

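Gene expression was measured as FPKM deposited by the authors, in 1 table with a column for each of the 2 libraries. Per the labels' protocols, tumors were dissociated with a mouse tumor kit and RNA was taken from the cell pellets. Per the submitters' processing notes, bcl2fastq 2.18.0.12, STAR 2.7.6a, Cufflinks 2.2.1 and the build GRCh38 were used. The sources used here name no annotation, filter or step for mouse reads. The table has no counts, so precision from depth could not be given.

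Rows of 1 label were summed, and a gene was taken from the row naming it alone or in a merged locus. Entries needed 1 FPKM in at least 1 library. Log2 ratios used a pseudocount of 1 FPKM and no rescaling, and called means at least 2-fold. The procedure was tested on simulated data. Genes named from the further lists were at most 6 past 2-fold and the 1 with the highest mean of each list. Cell type markers were named after their values were seen. The genes and lists were chosen with earlier results of these data known. Protein motifs were not searched. Python 3.11.15, pandas 2.3.3 and scipy 1.17.1 were used.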

Additional observations from a re-analysis of the deposited data

How the results depend on the processing

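The 10 alternative settings gave 81 counts and medians, of which 68 stayed within 1.5 times the count or inside the interval of the median as reported. No gene named here changed the sign of a difference past 2-fold in 568 recomputed log2 ratios of 71 genes, and 15 of those crossed the 2-fold threshold, KIF18A and INCENP among the mitotic genes and CENPP, ENSA, PCNA, PKMYT1 and SASS6 among the others. The recomputed ratios include settings that could not move them. A change of filter leaves the log2 ratio of a gene as it was, and taking the highest row alters only labels with several rows. ESPL1 was past 2-fold under each scaling and pseudocount run. Its log2 ratio was at most 2.33 (a pseudocount of 0.1 FPKM) and at least 1.999 (libraries scaled to the same sum). The mitotic genes at least 2-fold lower numbered 1 with a pseudocount of 0.1 FPKM, 2 with libraries scaled to the same sum and 1 with scaling by the 75th percentile, in place of 0. The shares of all expressed entries that were lower were then 13.8%, 12.6% and 10.6%, in place of 9.35%. Scaling to the same sum also put the median of the mitotic genes at -0.13, where that of all expressed entries was -0.13. It gave 4 higher, 7 lower and a median of 0.040 for the wider mitotic list, where 7.17% of all entries were higher and 12.6% lower. Scaling by the 75th percentile gave 4 higher in that list, where 7.78% of all entries were higher. At a 1.5-fold threshold, 2 mitotic genes were higher and 3 lower, 29 of the wider list were higher and 14 lower, and 13 of the 25 G1 and S phase genes were higher, where 21.8% of all expressed entries were higher and 20% lower. Because a uniform scaling moves every log2 ratio by nearly the same amount, the counts under scaling followed the shift of the whole table. The counts at 1.5-fold follow from the lower threshold, and that with a pseudocount of 0.1 FPKM from KIF18A alone. Whether 1 fragment was worth the same FPKM in both columns is unknown, which leaves the direction of differences as small as those of most mitotic genes dependent on scaling. No paired analysis was possible because each group held 1 library.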

Other observations

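The mitotic genes near 0 were those with more than 1 row. SPC25 stood in 2 rows, with 0.185 FPKM in both libraries in the first, and in the second with 0.111 FPKM in the metastatic and 0.0739 FPKM in the primary library, a ratio of 1.5. KIF15 stood in 2 rows at 0. Of all 2249 labels with more than 1 row, 2072 (92.1%) were under 1 FPKM in both libraries. Of all 57011 labels only 13811 reached 1 FPKM in at least 1 library, so most labels of any kind were under it. LDHA, a gene of most cells, was also listed at 0 in both libraries, so a value of 0 here can be a failed estimate. The partners of SPC25 in the NDC80 complex stood between 21.9 and 51.6 FPKM in the metastatic and between 23.7 and 37.7 FPKM in the primary library. Whether SPC25 and KIF15 were expressed in these tumors cannot be told from the table.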
